A study of Mus musculus with 4 samples.

Results

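The mitosis and kinetochore genes described here are 40 genes whose products build the spindle, attach chromosomes to it and control entry into and exit from cell division. They were chosen by name from a list, and all 40 were found among the 49997 genes of the deposited count tables. All 40 passed the filter on low counts, which left 19837 genes. Their counts ran from 851 to 21671 reads in any library.

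The libraries came from explants of the mouse aorta-gonad-mesonephros region (AGM), the site where blood stem cells first arise in the embryo, cut from C57BL/6J embryos. The labels give the stage as E10.5 in one place and as E10.5 and E11.5 in another. All explants were cultured for 48 hours on membrane filters in MyeloCult medium with hydrocortisone, a medium shared by both groups. The untreated group had 2 libraries, and the CCCP group had 2 libraries from explants kept with 5 µM CCCP. CCCP is a protonophore, which carries protons across the inner mitochondrial membrane and so dissipates its potential. No label says whether libraries of a group came from separate embryos or pools, so p-values measure only the spread between these samples. In bulk RNA, fewer dividing cells and less of a transcript per dividing cell cannot be told apart.

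As background, cells enter mitosis when cyclins A and B activate the kinase Cdk1. Kinetochores assemble on centromeres, motors of the kinesin family shape the spindle, and the spindle assembly checkpoint holds the anaphase promoting complex in check until every chromosome is attached. Most genes of this programme are transcribed mainly in G2 and M phase. Complexes that contain MuvB bind a promoter element called the cell cycle genes homology region (CHR), often beside boxes bound by NF-Y. Their transcripts are therefore widely read as markers of dividing cells.

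That promoter code could be read in the sequences themselves. RefSeq promoters on GRCm38.p6, taken from 250 bases before to 50 bases after the annotated start, were in hand for 33 of the 40 genes, as 36 promoters, since 3 genes had 2 overlapping ones. The first motif searched, on both strands, was the core of the CHR, spelled TTTGAA. It was found in 29 of the 36 promoters, or 80.6%, against 17.9% of all 32851 promoters of the same length. The second motif, also searched on both strands, was the box bound by NF-Y, spelled CCAAT. That box was found in 77.8% of them against 37.4%, and both motifs together in 69.4% against 6.95%. Of the 37 matches to the CHR core, 27 began within 50 bases of the start. The median position of the NF-Y box matches was -69.5 from the start, where negative positions lie upstream. A site shared by 2 overlapping promoters of a gene was counted in each of them. The CHR core was not found in the windows of Ccnb1, Birc5, Cenpe, Nuf2, Bub1, Mad2l1 and Nusap1. These matches are descriptions of the sequence and not of bound factors.

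The promoters of 4 genes are shown because genes on either side of 0 in the comparison described next hold the same motifs: Cenpf and Mki67 had the lowest log2 fold changes of the set, and Ube2c and Ccnb2 had log2 fold changes above 0, that of Ube2c not without untreated replicate 1. Each runs 5′ to 3′ on the strand of its gene and ends 30 bases after the start, with matches to either motif, or to its reverse complement, in capitals. Cenpf lies on the minus strand at chr1:189688057-189688336, Mki67 on the minus strand at chr7:135716350-135716629, Ube2c on the plus strand at chr2:164769679-164769958 and Ccnb2 on the minus strand at chr9:70421525-70421804.

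Cenpf: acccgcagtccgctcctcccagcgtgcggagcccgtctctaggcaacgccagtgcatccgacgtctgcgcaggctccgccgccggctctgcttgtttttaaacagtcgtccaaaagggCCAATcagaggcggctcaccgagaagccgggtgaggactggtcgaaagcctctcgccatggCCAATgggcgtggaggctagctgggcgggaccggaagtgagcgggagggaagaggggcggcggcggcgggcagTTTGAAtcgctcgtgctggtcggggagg

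Mki67: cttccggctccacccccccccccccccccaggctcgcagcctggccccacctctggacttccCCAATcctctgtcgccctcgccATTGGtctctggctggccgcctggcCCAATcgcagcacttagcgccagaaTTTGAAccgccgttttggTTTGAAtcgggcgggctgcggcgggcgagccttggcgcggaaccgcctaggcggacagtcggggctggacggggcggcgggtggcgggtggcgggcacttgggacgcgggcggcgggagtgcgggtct

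Ube2c: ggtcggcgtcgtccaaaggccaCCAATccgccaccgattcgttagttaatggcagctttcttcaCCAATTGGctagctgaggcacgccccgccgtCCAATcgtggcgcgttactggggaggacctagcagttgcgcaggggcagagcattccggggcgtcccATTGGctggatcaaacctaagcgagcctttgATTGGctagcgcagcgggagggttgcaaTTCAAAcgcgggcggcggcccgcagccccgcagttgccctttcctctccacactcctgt

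Ccnb2: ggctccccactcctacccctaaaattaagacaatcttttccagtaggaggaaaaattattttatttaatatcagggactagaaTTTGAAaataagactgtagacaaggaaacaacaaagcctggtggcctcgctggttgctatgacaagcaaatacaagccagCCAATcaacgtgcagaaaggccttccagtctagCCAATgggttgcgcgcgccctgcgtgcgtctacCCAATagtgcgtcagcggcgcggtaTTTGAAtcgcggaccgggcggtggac

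In Ccnb2, 3 NF-Y boxes at -87, -54 and -21 precede a CHR core at position 5, and a further CHR core begins at -167. In Ube2c, 6 NF-Y boxes precede a CHR core on the opposite strand at -29, and the boxes at -186 and -183 share bases. The share of promoters with both motifs was 63.2% among genes of the set with a log2 fold change below 0 and 76.5% among those above 0, so both directions held them.

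**Figure D1:**
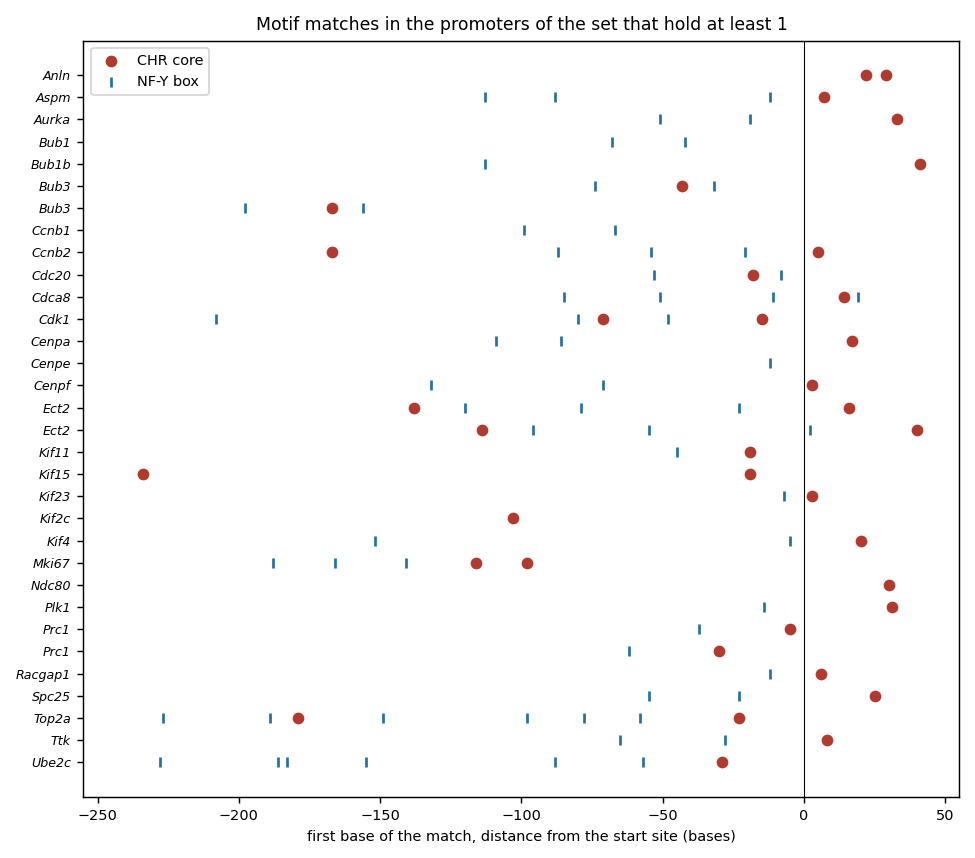
Positions of the CHR core (circles) and the NF-Y box (bars) in those promoters of the mitosis and kinetochore genes that hold at least 1 match, as distance of the first base from the annotated start in bases, 1 line per promoter. Of the 37 CHR core matches, 27 lie within 50 bases of the start, with sites shared by overlapping promoters of a gene counted in each.

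Levels are given as CPM, reads of a gene scaled to a common library total, after TMM scaling, which corrects those totals for differences in composition. Differences are log2 fold changes of CCCP over untreated with a standard error (SE), and adjusted p-values come from the quasi-likelihood test of edgeR, adjusted by the Benjamini-Hochberg method over every gene tested. Summed over the 40 genes, the set made up 2975 and 4251 CPM in untreated replicates 1 and 2 and 3015 and 3470 CPM in CCCP replicates 1 and 2. Both CCCP sums thus lay between the untreated sums, and the larger gap was within the untreated group, where replicate 2 was 1.43 times replicate 1. None of the 40 genes passed an adjusted p of 0.05 in edgeR, where 0.00% of all genes did. Unadjusted p-values under 0.05 were reached by 6 genes of the set, all lower in CCCP (15% of the set), against a background of 9.16% lower, 5.45% higher and 14.6% in either direction. DESeq2 called 4 of the 40 at an adjusted p under 0.05, all 4 lower, where it called 2.70% of all genes as lower, 0.297% as higher and 2.99% in either direction. In edgeR without a filter beyond 1 count, 6 of the 40 were called, where 3.43% of all genes were. With the replicate number as a block the counts were 9 of 40 beside 10.7% of all genes, then 5 of 40 beside 5.67% with the trend in exon length removed as well, and 4 of 40 beside 3.63% with the trend in GC content removed as well; no label says what the number marks.

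The median log2 fold change of the set was 0.02, beside -0.01 over all genes tested, with 21 genes above 0 and 19 below. Library scaling alone could turn this sign, since the median was -0.04 with no scaling beyond library totals. The set ranged from -0.99 for Cenpf to 0.39 for Aurka. Both CCCP libraries lay below both untreated libraries for 7 of the 40 genes (17.5%, background 24.8%) and above them for 1 gene, Bub3 (2.5%, background 24.0%). Non-overlap was therefore no more frequent in the set than among all genes. Left out in turn, the untreated libraries moved the median most, to -0.25 without untreated replicate 1, when 6 of 40 genes were above 0, and to 0.37 without untreated replicate 2, when 32 were.

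**Figure D2:**
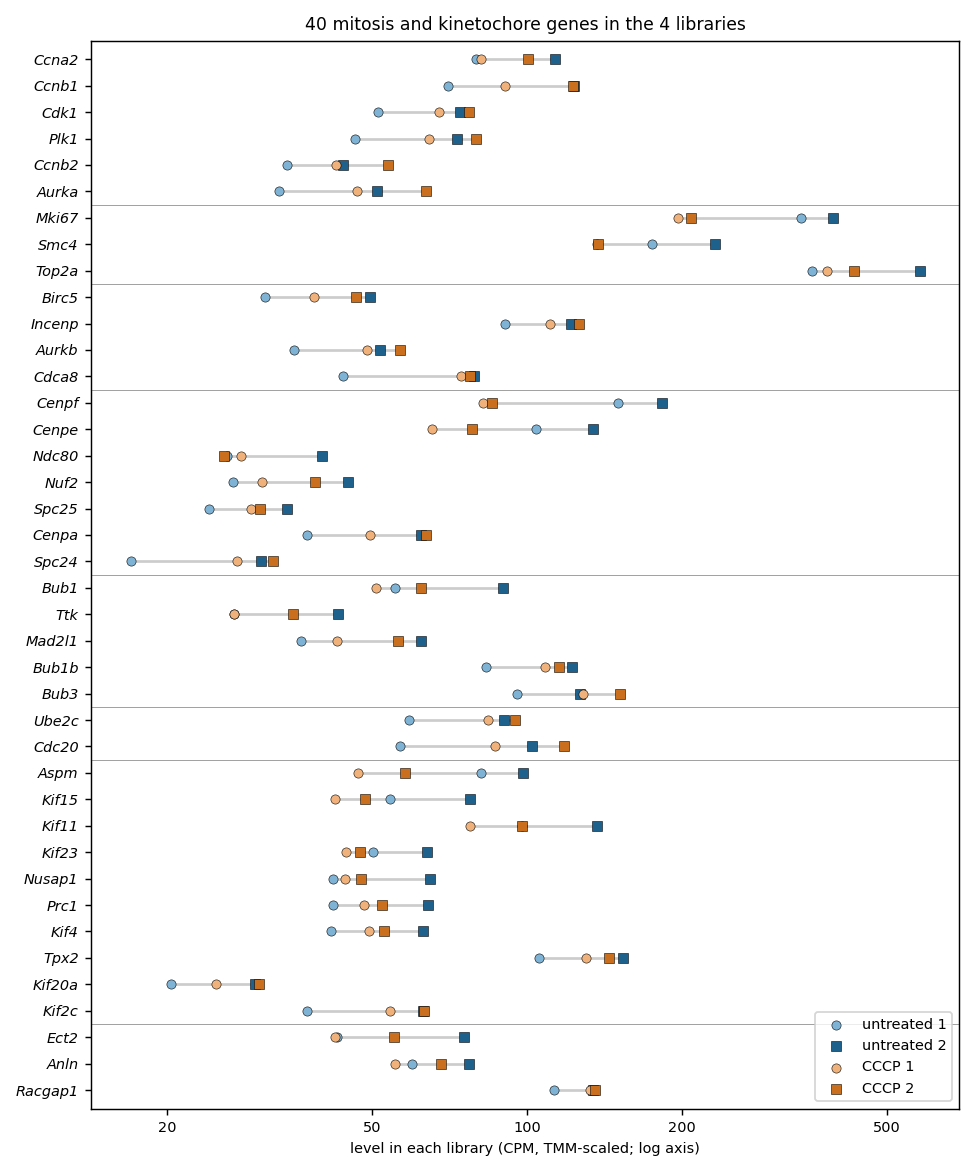
Level of each of the 40 genes in each of the 4 libraries, in CPM on a log axis, grouped by role with lines between groups; the grey bar joins the lowest and the highest library. Untreated replicate 1 is the lowest library for 27 genes and untreated replicate 2 the highest for 26.

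Of the 6 genes that drive entry into mitosis, 5 had a log2 fold change above 0 with CCCP, and edgeR with group as the sole term or DESeq2 called none. With the replicate block, edgeR called Aurka as higher (log2 fold change 0.41, adjusted p 0.0381). Cdk1 (chr10:69335146-69352912), the kinase of mitotic entry, had 51.4 and 74.0 CPM untreated and 67.4 and 77.1 CPM with CCCP. Its log2 fold change was 0.20 (SE 0.193, edgeR adjusted p 0.639), and it was -0.03 without untreated replicate 1. Ccnb1 (chr13:100778739-100786486), the main B-type cyclin, had 70.2 and 124 CPM untreated and 90.7 and 123 CPM with CCCP. The CCCP values thus fell inside the untreated range, with a log2 fold change of 0.14 (SE 0.284, edgeR adjusted p 0.844) that was -0.20 without untreated replicate 1 and -0.09 without CCCP replicate 2. Ccnb2 (chr9:70407689-70421554), the second B-type cyclin, had 34.1 and 43.9 CPM untreated and 42.6 and 53.8 CPM with CCCP, and a log2 fold change of 0.31 (SE 0.181, edgeR adjusted p 0.471). That value was 0.14 without untreated replicate 1, 0.53 without untreated replicate 2, 0.47 without CCCP replicate 1 and 0.14 without CCCP replicate 2. Aurka (chr2:172356190-172370886), a kinase of centrosome maturation, had 33.0 and 51.2 CPM untreated and 46.8 and 63.7 CPM with CCCP. Its log2 fold change of 0.39 (SE 0.247, edgeR adjusted p 0.493) was the highest of the 40, yet CCCP replicate 1 lay below untreated replicate 2. Leaving out untreated replicate 1 gave 0.12 for Aurka, with Bub3 (0.15) and Ccnb2 (0.14) higher. Leaving out untreated replicate 2 gave 0.77, with Cdc20 (0.88), Spc24 (0.84) and Cdca8 (0.82) higher. With the GC trend removed Aurka stood at 0.31, with Bub3 (0.37), Cdca8 (0.34) and Mad2l1 (0.32) higher. Plk1, a kinase that acts at many steps of mitosis, stood at 0.27 and Ccna2, cyclin A, at -0.08. The median of these 6 genes was 0.24, and without untreated replicate 1 it was -0.02.

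The genes for chromosome structure and the proliferation marker had the lowest levels with CCCP relative to untreated, with 3 of 3 below 0. Mki67 (chr7:135689784-135716450) encodes the Ki-67 protein, which coats mitotic chromosomes and is the usual marker of cycling cells. Its level was 339.8 and 393 CPM untreated and 196 and 208 CPM with CCCP. The groups did not overlap, with a log2 fold change of -0.86 (SE 0.133, edgeR adjusted p 0.144), and the gene was called by DESeq2 (adjusted p 3.59e-05). Smc4 (chr3:69004738-69034623), a core subunit of condensin, had 175 and 232 CPM untreated and 137 CPM in each CCCP library. Its log2 fold change was -0.57 (SE 0.159, edgeR adjusted p 0.242, DESeq2 adjusted p 0.0735), and it was -0.32 without untreated replicate 2. Top2a (chr11:98992947-99024199), the topoisomerase that untangles sister chromatids, was the most counted gene of the set, with 358 and 579 CPM untreated and 382 and 431 CPM with CCCP. Both CCCP values lay between the untreated ones, and its log2 fold change of -0.20 (SE 0.238, edgeR adjusted p 0.707) was 0.22 without untreated replicate 2. Per kilobase of the longest GENCODE coding transcript, Top2a again had the highest mean level, 83.8 CPM per kilobase, and Mki67 stood at 28.3.

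The kinetochore genes split. Cenpf (chr1:189640606-189688107), a large coiled-coil protein of the outer kinetochore, had 150.3 and 183 CPM untreated and 82.1 and 85.3 CPM with CCCP. Both CCCP libraries lay far below both untreated ones, with a log2 fold change of -0.99 (SE 0.136, edgeR adjusted p 0.144, DESeq2 adjusted p 6.42e-06), the lowest of the set. Cenpe (chr3:135212563-135273540), the kinesin of the kinetochore that moves chromosomes to the spindle equator, had 104 and 134 CPM untreated and 65.5 and 78.3 CPM with CCCP. Its groups did not overlap either, at a log2 fold change of -0.73 (SE 0.167, edgeR adjusted p 0.204, DESeq2 adjusted p 0.0164). Spc24 (chr9:21755434-21760446), a subunit of the Ndc80 complex that binds microtubules, had 17.0 and 30.5 CPM untreated and 27.4 and 32.1 CPM with CCCP, and a log2 fold change of 0.33 (SE 0.281, edgeR adjusted p 0.609) that was -0.03 without untreated replicate 1. The other subunits of that complex stood at -0.30 for Ndc80, -0.05 for Nuf2 and 0.03 for Spc25, and Cenpa, the histone variant that marks centromeres, at 0.18. Over the 7 genes the median was -0.05, with 2 genes, both lower, at an unadjusted p under 0.05, beside 9.16% of all genes. The median moved to -0.37 when untreated replicate 1 was left out and to 0.33 when untreated replicate 2 was.

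The 4 genes of the chromosomal passenger complex, which corrects faulty attachments, were all above 0 with CCCP, at a median of 0.22 on the log2 scale and with none called in edgeR. Cdca8 (chr4:124918465-124936917), which encodes borealin, had 43.9 and 78.7 CPM untreated and 74.4 and 77.5 CPM with CCCP. Its log2 fold change of 0.31 (SE 0.263, edgeR adjusted p 0.604) rested on untreated replicate 1, without which it was -0.04. Aurkb (chr11:69045624-69051664), the kinase of the complex, had 35.3 and 51.9 CPM untreated and 49.0 and 56.6 CPM with CCCP, and a log2 fold change of 0.28 (SE 0.203, edgeR adjusted p 0.544), which was 0.03 without untreated replicate 1. Incenp, the scaffold, and Birc5, survivin, stood at 0.16 and 0.08. Without untreated replicate 1 the median of the 4 genes was -0.04.

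Checkpoint genes also went both ways. Bub3 (chr7:131560367-131571895), which carries checkpoint kinases to kinetochores, had 95.4 and 127 CPM untreated and 128 and 151 CPM with CCCP, the single gene of the set with both CCCP libraries above both untreated ones, by a small margin. Its log2 fold change was 0.33 (SE 0.173, edgeR adjusted p 0.421), and 0.15 without untreated replicate 1. Bub1 (chr2:127800197-127831859), one of those kinases, had 55.5 and 89.6 CPM untreated and 51.0 and 62.3 CPM with CCCP, and its log2 fold change of -0.36 (SE 0.240, edgeR adjusted p 0.514) was 0.06 without untreated replicate 2. Bub1b stood at 0.13, Mad2l1 at 0.003 and Ttk, the kinase Mps1, at -0.17. Downstream of the checkpoint, Ube2c (chr2:164769929-164772902), the ubiquitin-conjugating enzyme that works with the anaphase promoting complex, had 58.9 and 90.1 CPM untreated and 84.0 and 94.7 CPM with CCCP. Its log2 fold change was 0.26 (SE 0.211, edgeR adjusted p 0.581), and -0.004 without untreated replicate 1. Cdc20, the activator of that complex, stood at 0.36, with CCCP replicate 1 (86.5 CPM) between the untreated libraries (56.6 and 102 CPM). Leaving out untreated replicate 1 gave 0.01 for Cdc20, and leaving out untreated replicate 2 gave 0.88.

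Among the 10 spindle motors and microtubule-binding proteins, 7 were below 0 with CCCP and 3 above, at a median of -0.15 on the log2 scale. Aspm (chr1:139454188-139494088), which focuses spindle poles, had 81.4 and 98.0 CPM untreated and 46.9 and 58.0 CPM with CCCP. The groups did not overlap, at a log2 fold change of -0.77 (SE 0.159, edgeR adjusted p 0.178, DESeq2 adjusted p 0.00712). Kif15 (chr9:122951081-123018733), a motor that helps hold the spindle bipolar, had 54.3 and 77.5 CPM untreated and 42.5 and 48.4 CPM with CCCP, a log2 fold change of -0.54 (SE 0.191, edgeR adjusted p 0.303) that was -0.23 without untreated replicate 2. Kif11, the main motor that separates spindle poles, stood at -0.42, and Kif23, a motor of the central spindle, at -0.31, the latter with both CCCP libraries below both untreated ones. Nusap1 (-0.22), Prc1 (-0.08) and Kif4 (-0.03) were nearer to 0, and Tpx2 (0.08), Kif20a (0.14) and Kif2c (0.23) were above it. Without untreated replicate 2 the median of the 10 genes was 0.23. Of the cytokinesis genes, Ect2 (chr3:27097222-27154253), an exchange factor that acts at the division plane, had 42.8 and 75.5 CPM untreated and 42.4 and 55.1 CPM with CCCP, a log2 fold change of -0.28 (SE 0.280, edgeR adjusted p 0.659) that was 0.22 without untreated replicate 2. Anln, anillin, stood at -0.15 and Racgap1, the partner of Ect2, at 0.12.

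**Figure D3:**
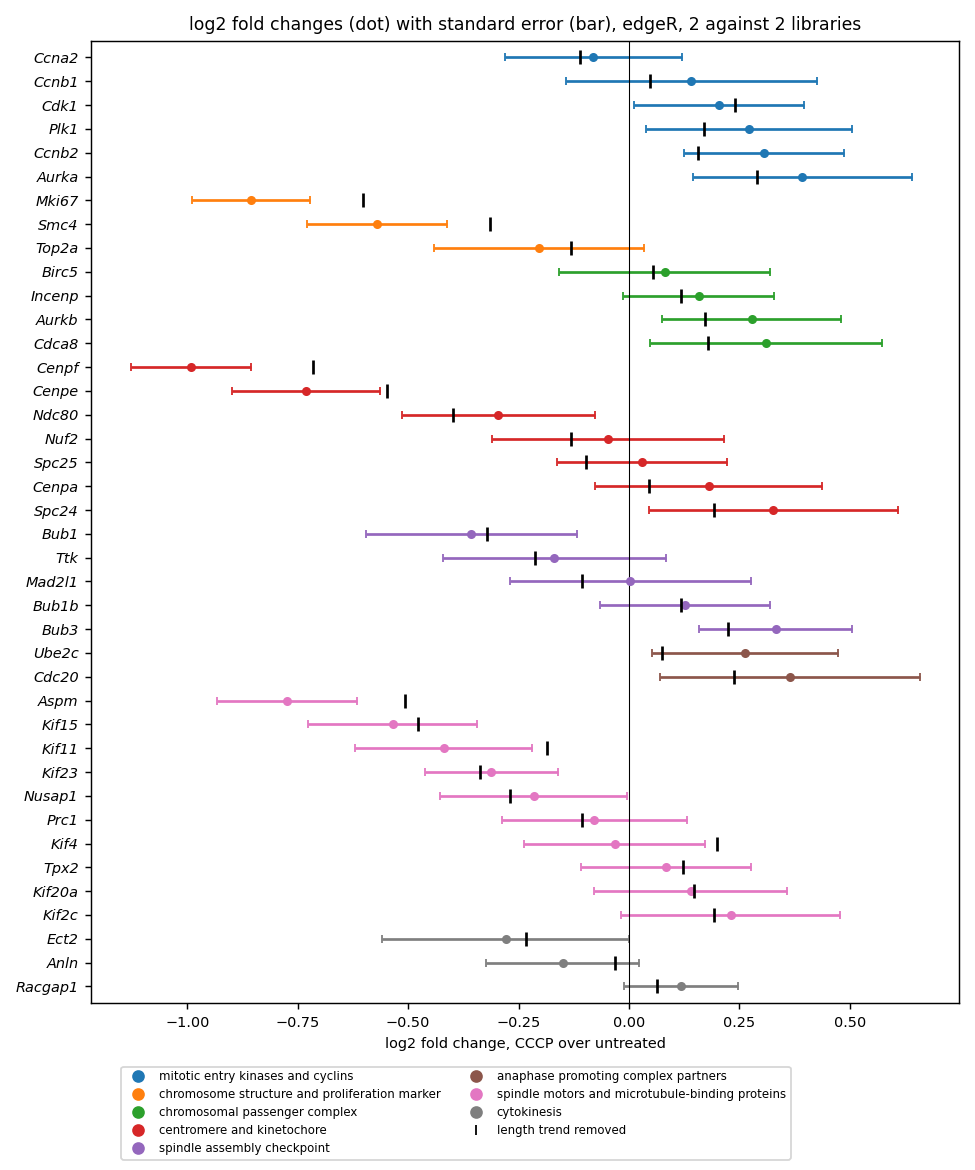
Log2 fold change of CCCP over untreated for each of the 40 genes (dots, coloured by role, with bars of 1 SE) and the same value once the trend with exon length was removed from each library (black ticks). Cenpf is lowest at -0.99 and Aurka highest at 0.39, and the ticks of Mki67, Cenpf, Aspm, Smc4 and Kif11 lie nearer to 0 than their dots. The trend was removed by tabulated exon length, which for Smc4 and Kif11 is well above that of their longest GENCODE coding transcript.

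The log2 fold changes of the set went with the exon length of its genes. Across the 40 genes, log2 fold change and exon length had a Spearman correlation of -0.76, against -0.35 across all genes tested. Genes share their libraries and are not replicates, so no p is given. The difference between long and short genes of the set was known from earlier results of these data before this reading was chosen. The correlation of the set is therefore a description and no independent support. The 20 genes of at most 3321 bases had a median log2 fold change of 0.21, with 16 above 0, and the 20 longer ones a median of -0.24, with 5 above 0. Over all genes the medians on either side of 3467 bases were 0.14 and -0.13, and the longest 10% of genes had a median of -0.35. The 4 genes that DESeq2 called, Cenpf, Mki67, Aspm and Cenpe, have exons of 11367, 10153, 10869 and 7813 bases. Kif4, at 9730 bases in the tables, stood at -0.03 and so apart from them.

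**Figure D4:**
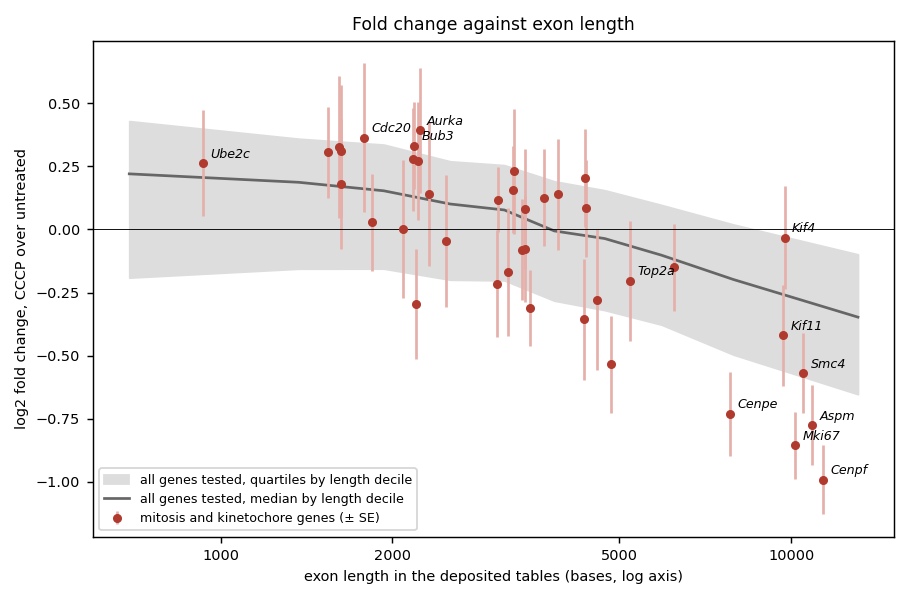
Log2 fold change of CCCP over untreated against exon length (log axis) for the 40 genes (points with bars of 1 SE), over the median (line) and quartiles (band) of all genes tested by decile of length. Cenpf, Mki67, Aspm and Cenpe lie below the band, and Kif4 lies at its upper edge. Shorter genes of the set also lie outside it, such as Kif15, Bub1, Kif23 and Ndc80 below and Aurka, Bub3 and Cdk1 above.

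The tabulated lengths have limits. Kif11 is listed on 2 contigs, and its 9688 bases count both copies. Its longest GENCODE coding transcript has 4819 bases, and those of Kif4 and Smc4 have 4983 and 4316 bases, against 9730 and 10494 in the tables. With GENCODE lengths the rank correlation was -0.70 for the set and -0.40 over all genes that have one. Removal of the length trend used the tabulated lengths, so the corrected values of Kif11, Kif4 and Smc4 rest on the larger figures. Once the length trend was removed from each library, the rank correlation over all genes was 0.01 and that of the set -0.51. Cenpf then stood at -0.72, Mki67 at -0.60, Cenpe at -0.55, Aspm at -0.51, Kif15 at -0.48 and Smc4 at -0.32, none of them called in edgeR. GC content went with the differences as closely as length did, with a rank correlation of 0.76 across the 40 genes and 0.37 across the genes tested that have a GC value. Length and GC content had a rank correlation of -0.40 with each other across the 40 genes. With the length trend removed, the rank correlation of the set with GC content was 0.75. With the GC trend removed, it was 0.37 with GC content and -0.77 with exon length. Removing the GC trend from each library left Cenpf at -0.81, Mki67 at -0.79, Aspm at -0.63, Cenpe at -0.54, Kif15 at -0.33 and Smc4 at -0.26, and raised the median of the set to 0.11. Whether length or GC content has a part in these differences was not tested.

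Longer genes stood lower in each of the 4 pairings of a CCCP with an untreated library, which share libraries and so are not independent. In CCCP replicate 1 over untreated replicate 1 the shorter genes had a median of 0.39 and the longer ones -0.06, and in CCCP replicate 2 over untreated replicate 2 they had 0.02 and -0.43. The rank correlation ran from -0.75 to -0.68 over the 4 pairings. Between libraries of the same group the order was alike but weaker, with a rank correlation of -0.47 for untreated replicate 2 over replicate 1 and -0.22 for CCCP replicate 2 over replicate 1.

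The libraries differed in the overall level of the set more than the groups did. All 40 genes were higher in untreated replicate 2 than in untreated replicate 1, by 1.16-fold for Mki67 to 1.81-fold for Cdc20, with a median of 1.49-fold. In the CCCP group 39 of 40 were higher in replicate 2, with a median of 1.17-fold, and Ndc80 was the exception at 0.927-fold. Replicate 1 was thus below replicate 2 in both groups for 39 of the 40 genes (97.5%), where 33.2% of all genes were. For 34 of the 40 genes the log2 gap between the untreated libraries exceeded that between the group means. Both CCCP libraries lay between the untreated ones for 13 genes (32.5%), against a background of 14.1%.

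**Figure D5:**
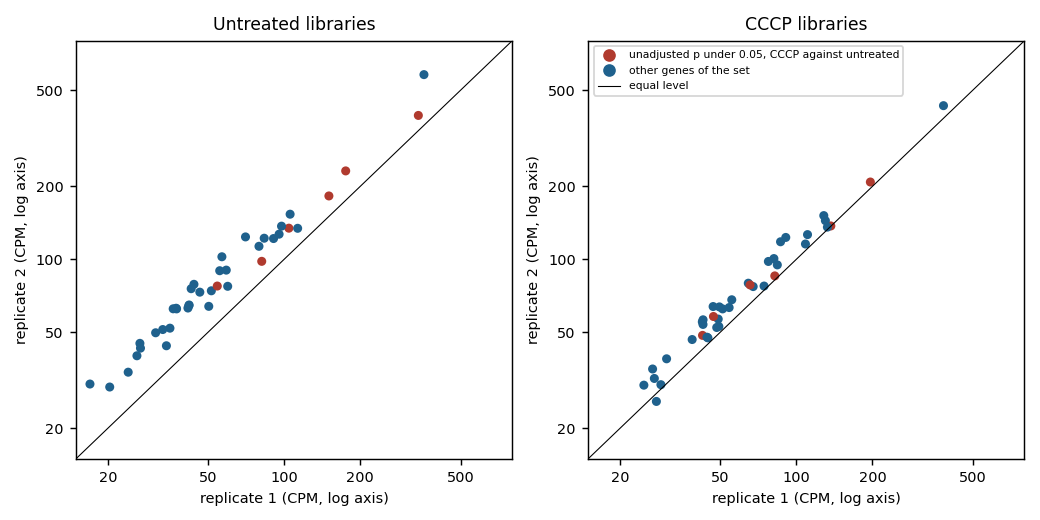
Level of each of the 40 genes in replicate 2 against replicate 1 of the same group, in CPM on log axes, with the line of equal level; red points are the 6 genes at an unadjusted p under 0.05 for CCCP against untreated. All 40 points lie above the line in the untreated panel and 39 in the CCCP panel.

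Some marker lists of other cell types differed between the same untreated libraries and others did not, and their part in the result was not tested. The summed level of the 9 mesenchymal markers was 5594 CPM in untreated replicate 1, 3254 CPM in untreated replicate 2 and 3630 to 4723 CPM in the CCCP libraries. That gap lay mostly in collagen genes such as Col3a1 (2303 and 1306 CPM untreated), while Twist1 had 103 and 106 CPM and Lum 72.7 and 75.9 CPM in the same libraries. Kidney and gonad markers (8 genes) summed to 183 and 123 CPM in untreated replicates 1 and 2 and to 179 and 136 CPM in the CCCP libraries. Skeletal muscle markers (8 genes) summed to 617.6 and 411.3 CPM untreated and to 567.0 and 542.7 CPM with CCCP. Endothelial markers (9 genes) were instead higher in untreated replicate 2, as the mitosis genes were. Their sums were 537.5 and 693.7 CPM untreated and 551.2 and 524.1 CPM with CCCP. The median log2 ratio of untreated replicate 2 over replicate 1 was 0.39 for these endothelial markers. Sums of erythroid (2255 and 2419 CPM), haematopoietic (137 and 134.5 CPM) and neural markers (748 and 719 CPM) differed little between the untreated replicates, and the erythroid sum was highest in CCCP replicate 2, at 3617 CPM. Between groups, the hepatic markers differed most, with 10 of 10 lower in both CCCP libraries, beside 24.8% of all genes, and sums of 1664 and 971 CPM untreated against 53.4 and 105 CPM with CCCP; Fga was at 0 in CCCP replicate 1. The labels name embryonic stem cells of the blood as the cell type and, in the design, cells positive for c-kit, but the extraction protocol names explants. The 9 haematopoietic markers tested of 10 summed to 104 to 137 CPM, of which Kit, the gene of c-kit, made up 47.6 to 63.2 CPM, with Ptprc, the leukocyte antigen CD45, at 3.39 to 6.85 CPM. The libraries are described here as explant tissue. Total counts were 37360968 to 48827826 reads per library.

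A further 105 genes of mitosis, listed by role and all tested, had a median log2 fold change of 0.06, with 0 called by edgeR at an adjusted p under 0.05. Unadjusted p-values under 0.05 were reached by 14 lower and 5 higher genes of the 105, beside 9.16% and 5.45% of all genes. Both CCCP libraries lay below both untreated ones for 21 and above for 18, beside 24.8% and 24.0% of all genes, so non-overlap was less frequent than that background in either direction. Genes listed with condensin and cohesin (16), which include regulators such as Pttg1, Espl1, Sgo1 and Sgo2a, had a median of -0.21, with 7 below and 2 above without overlap. Genes listed with the anaphase promoting complex (17), which include partners such as Ube2s and Fbxo5, had a median of 0.26, with 9 above and 2 below without overlap. The counts of both lists are to be read beside the same 24.8% below and 24.0% above. Of genes with a mean of at least 10 CPM and no overlap between groups, the lowest included Kif20b, a motor of cytokinesis, with 38.2 and 52.5 CPM untreated and 22.4 and 25.2 CPM with CCCP (log2 fold change -0.93, SE 0.186, edgeR adjusted p 0.173), and Knl1, the kinetochore scaffold that binds Bub1, with 45.4 and 57.2 CPM untreated and 24.9 and 30.9 CPM with CCCP (-0.88, SE 0.176, edgeR adjusted p 0.173). The highest by the same rule were Pttg1, securin, with 11.9 and 14.8 CPM untreated and 20.2 and 17.9 CPM with CCCP (log2 fold change 0.51, SE 0.190, edgeR adjusted p 0.314), then Anapc13, a small subunit of the anaphase promoting complex (0.42), and Mad2l1bp, which silences the checkpoint (0.38). The rank correlation with exon length was -0.49 over the 105 genes, whose 53 shorter members had a median of 0.12 and 52 longer ones -0.11.

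Of genes for the factors that act at the CHR, Foxm1 stood at a log2 fold change of 0.01 and Mybl2 at 0.19, and the 4 MuvB subunits listed ran from -0.29 for Lin54 and -0.13 for Lin9 to 0.14 for Lin52 and 0.30 for Lin37, with none of these 6 genes called in edgeR. Among all 19837 genes tested, 9751 were above 0. The 7 inhibitors of cyclin-dependent kinases were all above 0, with a median of 0.21 and none at an unadjusted p under 0.05. Both CCCP libraries lay above both untreated ones for 3 of the 7, beside 24.0% of all genes, and below them for 0. Those 3 were Cdkn1b (log2 fold change 0.10), Cdkn2c (0.19) and Cdkn2d (0.21). Cdkn1c, the inhibitor p57, was the most abundant of them at 975 and 709.8 CPM untreated and 1167 and 969.6 CPM with CCCP, so its groups overlapped (log2 fold change 0.34, SE 0.203, edgeR adjusted p 0.470). Cdkn1a, the p53 target p21, had 58.1 and 80.7 CPM untreated and 68.5 and 94.7 CPM with CCCP (0.23, edgeR adjusted p 0.636). Cdkn2a was barely counted, at 0.24 and 0.13 CPM untreated and 0.12 and 0.28 CPM with CCCP (log2 fold change 0.05, SE 0.804). Cdkn2b had 1.22 and 0.94 CPM untreated and 0.72 and 2.81 CPM with CCCP, so only CCCP replicate 2 lay above the untreated libraries.

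Counting adds a limit for some genes. Reads were counted without regard to strand, and the exons of 10 of the 40 genes overlap those of another gene, in 9 cases one on the opposite strand. Shared bases make up 66.4% of the exon bases of Kif20a, 22.7% of those of Prc1 and 11.2% of those of Ccna2, whose levels are therefore uncertain, and at most 9.49% in the others.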

How the data were processed

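RNA was measured in 4 libraries of AGM explants, 2 untreated and 2 with CCCP, grouped by sample title. What the authors deposited is a table of raw counts by gene for each library. Per the file headers, the authors counted exons with featureCounts 2.0.3 against an mm10 RefSeq annotation, with no strand option and no option to count read pairs. Per the submitters' processing notes, HISAT2 and SAMtools were used, with no version given. The column header of untreated replicate 1 differs by a letter from its title, so its sample follows the series' file list.

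Total counts ran from 37360968 to 48827826 per library. No library pair agreed within counting noise (chi-square per degree of freedom of at least 37.8). The main test was edgeR 4.0.16 (R 4.3.3): TMM scaling, filterByExpr (minimum count 10, total 15), glmQLFit and glmQLFTest with group as the sole term, two-sided, Benjamini-Hochberg over 19837 genes, threshold 0.05. The SE is the log2 fold change divided by the root of F. An exact permutation test of 2 against 2 libraries could not pass 0.05 and was not run. DESeq2 1.42.0 was an alternative. Length and GC trends were estimated per library by lowess (span 0.3) and entered as offsets. GC content came from the longest GENCODE M21 transcript of each gene (90.4% of genes tested). Scripts were tested on simulated data. The genes and lists were chosen with earlier results of these data known. Full values are given for 18 genes: the 1 or 2 smallest p-values in each role, the 3 longest and 3 shortest, and Mki67, Top2a, Cdk1 and Ccnb1. Of the further mitosis genes and kinase inhibitors, the 3 highest and 3 lowest without overlap and with a mean of at least 10 CPM are named, with other names chosen after their values were seen; 1 of these genes is not reported here.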

Additional observations from a re-analysis of the deposited data

How the results depend on the processing

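The number of genes of the set called at an adjusted p under 0.05, 0 in edgeR with group as the sole term, was 4 in DESeq2 (594 over all genes) and 6 without a filter beyond 1 count (1107 over all genes, 32261 tested): Aspm, Cenpe, Cenpf and Mki67 in both, with Kif15 and Smc4 in the latter. The cause was not tested. Leaving out 1 library gave 0 to 1 genes of the set, the 1 being Cenpf without untreated replicate 1, and 10 to 46 over all genes; a lone library is then assumed to vary like the other group. In those fits the median of the set ran from -0.25 to 0.37 and the rank correlation with exon length from -0.77 to -0.71. The log2 fold changes ran from -0.027 to 0.52 for Cdk1, -0.20 to 0.64 for Ccnb1, -0.043 to 0.82 for Cdca8, -0.027 to 0.84 for Spc24, -0.0037 to 0.63 for Ube2c, -0.50 to 0.22 for Top2a, -0.65 to 0.060 for Bub1 and -0.62 to 0.22 for Ect2, each of which changed sign. Those of Cenpf, Mki67, Aspm, Cenpe, Smc4 and Kif15 stayed below 0 in all 16 alternatives planned.

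The replicate numbers have no stated meaning, so pairing is not part of the design. With the replicate block, edgeR called 9 genes of the set (7 lower; Aurka and Cdc20 higher) and 2118 over all genes. Deviations of same-numbered libraries from their group means had a correlation of 0.36 over all genes tested. Adding length trend removal to the replicate block gave 5 (1125 over all genes), all lower, with the rank correlation at -0.49, and the replicate block with the GC trend removed gave 4 (651 over all genes), all lower, with Top2a at 0.015 and Ect2 at 0.078. The rank correlation was -0.51 with the length trend removed and -0.70 with GENCODE lengths, chosen after seeing the data. With the GC trend removed Ect2 stood at 0.033. Replicate 1 had the larger total count in both groups, 48216849 against 37360968 reads untreated and 48827826 against 37579087 reads with CCCP. Whether depth had a part in the gap between replicates was not tested.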
